A study of Mus musculus with 2 samples.

Results

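The genes described here are the ligands and receptors of axon guidance, measured in single nuclei of the mouse anterior hypothalamus together with the preoptic area. They were chosen by symbol alone: the semaphorins (Sema), plexins (Plxn), neuropilins (Nrp), ephrins (Efna and Efnb), Eph receptors (Epha and Ephb), Slits, Robos, netrins (Ntn), Dcc and the Unc5 receptors. This gave 69 of the 32285 genes in the feature list. The groups were 1 library from tissue pooled over 5 male mice aged 22 months and 1 library from tissue pooled over 5 wild-type male mice aged 3 months. The labels used here give no genotype for the aged mice and no strain for either group, and they name no treatment. Nuclei were cleared of myelin with magnetic beads, stained with DAPI, sorted and loaded on a 10x Genomics droplet chip. Each age has 1 library and no replicate, so no test was made, and an effect of age cannot be told apart from one of the pooled animals or of the library. Every interval below is a 95% interval for counting error only.

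Guidance cues are secreted or membrane-bound proteins that steer growing axons and migrating cells by attraction or repulsion. Semaphorins signal through plexins, with neuropilins as co-receptors for most secreted forms, Slits through Robos, netrins through Dcc and the Unc5 receptors, and ephrins through Eph receptors, where both the ligand and the receptor sit on cell surfaces and each can signal into its own cell. Many of these proteins remain in the adult brain, where they are known for roles at synapses, in myelinating cells and in the migration of precursors.

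The unit is the unique molecular identifier (UMI), which counts 1 captured RNA molecule. Barcodes with 500 or more genes and mitochondrial genes at 5% or less of UMIs numbered 8597 at 22 months and 10437 at 3 months, with medians of 5699 and 5567 UMIs, and 25 barcode sequences occurred in both. Members took 0.989% of their UMIs in the aged library and 0.987% in the young one. The doublet caller Scrublet marked 4.63% and 4.77% of them, which were left out of what follows. Clusters were named from marker lists. Neurons numbered 4971 aged and 6414 young nuclei, oligodendrocytes 1881 and 2133, microglia 408 and 475, oligodendrocyte precursors 181 and 232, and astrocytes 154 and 388. A cluster of 521 aged and 91 young nuclei with a median of 687 UMIs, led by Oxt and ribosomal genes, stayed unnamed and entered no class. Striatal-like and thalamic-like neurons, types of cells that lie outside the hypothalamus, were among the neurons beside Sim1-like, suprachiasmatic-like and Esr1 preoptic-like ones. Levels are CPM, that is, the UMIs of a gene divided by all UMIs of that class in that library, on the usual scale of this unit. A member was called measured in a class with 200 or more UMIs over both libraries, and past the fold where its ratio of aged over young CPM was 0.8 or less (lower), or the inverse of 0.8 or more (higher).

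Neurons and the precursors carried the largest shares of guidance RNA among these classes. Summed over all members, neurons held 10743 CPM in the aged and 10706 CPM in the young library, precursors 7837 and 8183 CPM, oligodendrocytes 4855 and 4479 CPM, astrocytes 2114 and 2113 CPM, and microglia 1538 and 1593 CPM. The sums of the 2 libraries lay close together in every class, while the classes differed several-fold. In neurons the receptors of all families were present. Robo1, a Slit receptor, stood at 1859 CPM in the aged and 1731 CPM in the young neurons. Dcc, the attractive netrin receptor, stood at 1696 and 1614 CPM, and Epha6 at 1005 and 989.8 CPM. The netrin receptors Unc5d (871 and 885 CPM) and Unc5c (612 and 564 CPM) and the ephrin receptor Epha5 (715 and 767 CPM) were also broadly present. Of the ligands, the secreted Slit3 stood at 379 and 408 CPM, the transmembrane semaphorin Sema6d at 363 and 415 CPM and the ephrin Efna5 at 303 and 279 CPM. These levels may depend on gene length and give no order between genes. Of the 69 members, 58 were measured in neurons. The other 11 (Efna1, Efna4, Epha1, Epha2, Ephb3, Ephb4, Ntn5, Plxnb3, Robo4, Sema3b and Sema3g) had between 1 and 115 UMIs in the neurons of both libraries.

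The glial classes differed in the levels of several members and shared others. Unc5c, a repulsive netrin receptor, was at 1426 CPM in the aged and 1444 CPM in the young oligodendrocytes, above its neuronal level in both libraries. Plxnb3, a plexin, was at 130 (119 to 141) and 186 (173 to 199) CPM in oligodendrocytes against 0.63 and 0.70 CPM in neurons. The ephrin Efnb3 was at 319 and 294 CPM in oligodendrocytes and at 59.5 and 57.3 CPM in neurons. In precursors Dcc was at 1704 and 1916 CPM, against 1696 and 1614 CPM in neurons, and Unc5c was at 1097 and 1109.5 CPM, against 612 and 564 CPM. Robo1 was lower in precursors (1167 and 1105 CPM) than in neurons (1859 and 1731 CPM). A pair of semaphorins was far lower in neurons than in precursors: secreted Sema3d at 394 CPM in both libraries, against 7.64 and 8.41 CPM in neurons, and Sema5a at 298 and 333 CPM, against 66.7 and 70.03 CPM. The members measured in microglia were Plxna4 (449.7 and 474 CPM), Sema4d (170.02 and 165 CPM) and Nrp1 (159 and 139.7 CPM), and Sema6d was at 356 and 460.3 CPM in astrocytes. Unc5d, at 871 and 885 CPM in neurons, was at 8.62 and 18.4 CPM in precursors. The 8 neuron markers summed to 7328 and 7548 CPM in precursors, 8302 and 8449 CPM in astrocytes and 967 and 1149 CPM in microglia, against 17220 and 18966 CPM in neurons. The part of neuronal RNA in these glial levels was not tested.

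**Figure D1:**
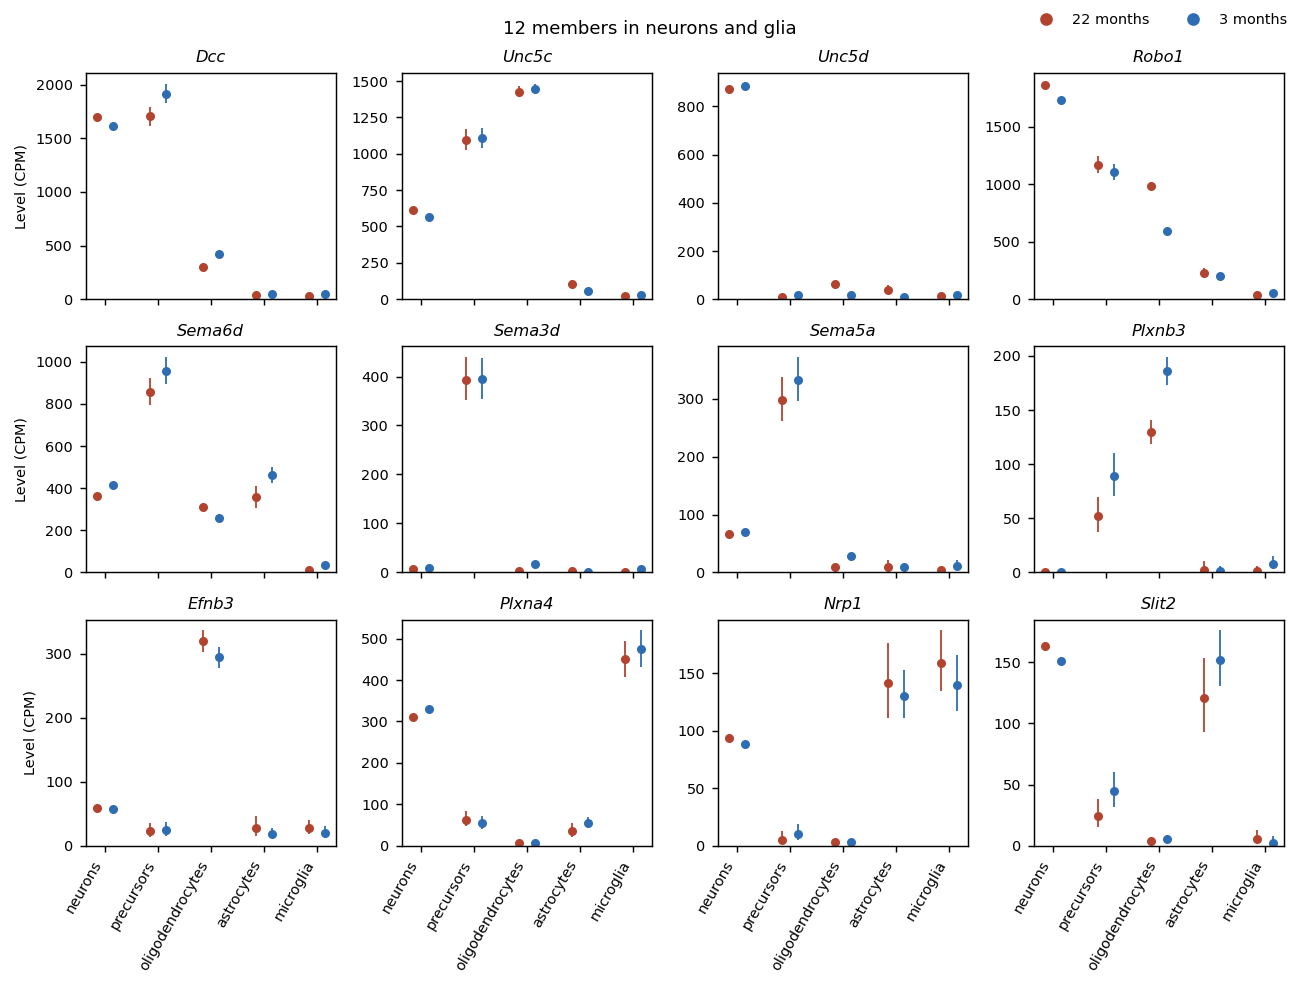
Level in CPM of 12 members in neurons and 4 glial classes, with the 22-month library in red and the 3-month library in blue; bars are exact Poisson 95% intervals for counting error. Unc5c and Efnb3 peaked in oligodendrocytes, Sema3d and Sema5a in precursors and Plxna4 in microglia. In those peak classes the 2 libraries lay near each other beside the differences between classes, while Robo1 and Unc5d differed between the libraries in oligodendrocytes.

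Levels of different genes were compared only per kilobase of gene. Nuclear RNA is rich in unspliced transcripts, and where these are counted long genes collect more UMIs. The use of intronic reads was not given, so this scale may favour short genes. On that scale Efnb3, a gene of 6.11 kb, led neurons (9.74 CPM per kb aged and 9.38 young) and oligodendrocytes (52.2 and 48.1 CPM per kb). In neurons the next were Robo1, with 2.52 and 2.35 CPM per kb over 738 kb, Epha10 (1.84 and 2.43 CPM per kb), Epha5 (1.97 and 2.12) and Sema4g (1.92 and 1.73). Epha10 lay below Robo1 in the aged library and above it in the young one. In oligodendrocytes Plxnb3 (8.41 and 12.03 CPM per kb), Unc5c (3.86 and 3.91), Sema6a (2.56 and 2.20) and Unc5b (1.61 and 1.70) came next. The 5 leaders per kb were Plxnb3, Efnb3, Unc5c, Sema5b and Sema3d in precursors, Sema4a, Plxnb1, Efnb3, Sema4b and Sema4g in astrocytes, and Plxnb2, Efnb3, Sema4c, Sema4g and Sema4d in microglia. Class 4 semaphorins, several of which are membrane-bound ligands of B-type plexins, made up 3 of these 5 in both astrocytes and microglia, mostly on few UMIs. Of the leaders in these classes, only Sema4d in microglia was measured by the rule above (155 aged and 154 young UMIs). Sema4c had 27 and 20 UMIs and Sema4g 28 and 20 in microglia. In astrocytes Sema4a had 52 and 116 UMIs, Sema4b 45 and 92 and Sema4g 10 and 22. Counts this low cannot settle which members lead per kb, so no pattern by family is drawn from them.

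Between the ages, the neuronal levels of these families lay close together. Of the 58 measured members, 0 were past the fold upward, against 7.75% of all genes measured in neurons, and 4 were past it downward (6.90%), against 10.2% of all genes. The members' median log2 ratio was 0.03, and that of all measured genes was 0.02. The 4 lower members were Ephb2 and Epha10 among the 10 measured Eph receptors, Sema5b among the 18 measured semaphorins and Slit1 among the 3 Slits. The 6 ephrins, 8 plexins, 2 neuropilins, 3 Robos, 3 netrins and 5 netrin receptors measured in neurons had no member past the fold in either direction.

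Ephb2, a receptor for B-type ephrins known for its place at excitatory synapses, had 1755 UMIs (38.0 CPM) in the aged and 2952 UMIs (53.1 CPM) in the young neurons, a ratio of 0.716 (0.674 to 0.760). The share of neurons with an Ephb2 UMI was 24.7% (23.5 to 25.9%) and 29.6% (28.5 to 30.7%), and with every nucleus thinned to 1000 UMIs it was 3.16% and 4.73%. Epha10, an Eph receptor that lacks kinase activity, was at 68.0 and 89.8 CPM (3140 and 4992 UMIs), a ratio of 0.757 (0.724 to 0.792). Fewer aged neurons carried either transcript at equal depth, and the median depth per neuron was higher in the aged library (8344 UMIs) than in the young one (7756 UMIs). Sema5b, a transmembrane semaphorin, was at 32.5 and 43.3 CPM (1499 and 2411 UMIs), a ratio of 0.749 (0.702 to 0.799). Slit1, a secreted repellent read by the Robos, was at 53.2 and 66.6 CPM (2455 and 3706 UMIs), a ratio of 0.798 (0.758 to 0.840), and at 0.689 after thinning. Epha10 overlaps the antisense gene 1700125G02Rik, and no source used here says whether the counting used strand. Ephb2, Epha10 and Sema5b were below 0.8 under each of the 8 alternatives run for them. Slit1 was at 0.807 with doublets kept, 0.814 with a mitochondrial limit of 1%, 0.801 with droplet RNA subtracted and 0.824 with neuron types weighted alike, so its call rests on values at the edge of the fold.

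**Figure D2:**
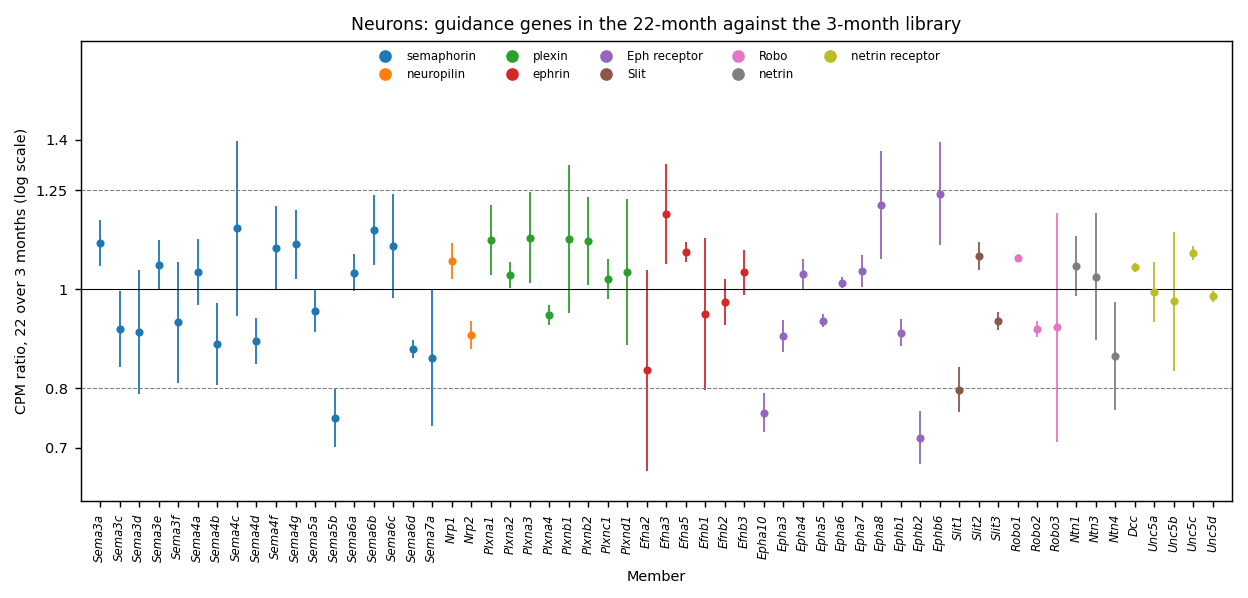
Ratio of the 22-month to the 3-month CPM in neurons for the 58 measured members, coloured by family on a log axis; bars are exact conditional 95% intervals for counting error and the dashed lines mark 0.8 and its inverse. Ephb2, Sema5b, Epha10 and Slit1 lie under the lower line, and no member lies above the upper one.

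The other members named by the ranking differed less. On the higher side stood Ephb6 (12.8 CPM aged and 10.4 young, ratio 1.24, 1.10 to 1.39), Epha8 (11.5 and 9.47 CPM, 1.21, 1.07 to 1.37), Efna3 (13.4 and 11.3 CPM, 1.19), Sema6b (27.0 and 23.6 CPM, 1.14) and Sema3a (58.8 and 53.0 CPM, 1.11), a secreted repellent that acts through Nrp1. Ephb6 and Epha8 were at 0.994 and 0.993 after thinning to 1000 UMIs, but on few UMIs. An Ephb6 UMI then remained in 56 aged and 74 young neurons, and an Epha8 UMI in 49 and 64. Such counts cannot decide whether either stood higher at equal depth. Unc5c (1.09), Efna5 (1.09) and Robo1 (1.07) had narrower intervals because they had more UMIs. On the lower side stood Sema6d (363 and 415 CPM, 0.873, 0.856 to 0.891), Nrp2 (145 and 161 CPM, 0.902), Robo2 (422 and 462 CPM, 0.914) and Epha3 (109 and 121 CPM, 0.900). With the neuron types weighted alike in both libraries, Sema6d was at 0.924, Robo2 at 0.982 and Epha3 at 0.952.

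Ephb2 and Epha8 lie near each other on chromosome 4 and are read from the same strand. Their neuronal ratios lay on opposite sides of 1, at 0.716 and 1.21, although that of Epha8 was 0.993 after thinning, on few UMIs. Ephb2 spans chr4:136647539-136835988 and Epha8 chr4:136929419-136956816, both on the minus strand, by the GENCODE M21 annotation of GRCm38. The 250 bases before each gene's RefSeq start (GRCm38.p6, 5′ to 3′ on the gene's strand) are printed to show how the 2 promoters differ, with the GC box GGGCGG or its reverse complement CCGCCC in capitals. The Ephb2 stretch is chr4:136836013-136836262 and the Epha8 stretch chr4:136956817-136957066. That of Robo1, the member with the most neuronal UMIs and a higher level in the aged oligodendrocytes, is chr16:72662899-72663148 on the plus strand, from a RefSeq start inside the longer M21 gene.
Ephb2: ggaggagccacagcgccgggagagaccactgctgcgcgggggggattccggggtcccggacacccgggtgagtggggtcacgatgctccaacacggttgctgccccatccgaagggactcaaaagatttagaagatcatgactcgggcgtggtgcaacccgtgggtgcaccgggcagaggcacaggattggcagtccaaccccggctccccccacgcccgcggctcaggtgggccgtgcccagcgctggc
Epha8: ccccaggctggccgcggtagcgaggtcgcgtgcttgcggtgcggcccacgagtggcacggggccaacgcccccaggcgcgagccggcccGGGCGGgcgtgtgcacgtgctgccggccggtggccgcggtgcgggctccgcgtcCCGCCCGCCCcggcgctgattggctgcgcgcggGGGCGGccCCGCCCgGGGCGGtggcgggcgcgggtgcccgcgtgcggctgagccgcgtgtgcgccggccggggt
Robo1: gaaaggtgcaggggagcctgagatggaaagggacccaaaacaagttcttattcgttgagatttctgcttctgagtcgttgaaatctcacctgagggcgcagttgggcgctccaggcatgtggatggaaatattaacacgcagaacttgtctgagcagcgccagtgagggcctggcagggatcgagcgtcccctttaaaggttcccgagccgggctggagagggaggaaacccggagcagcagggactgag

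The Epha8 stretch holds 6 GC boxes, some of them overlapping, and 84.0% G and C, while the Ephb2 stretch holds 0 GC boxes at 68.4% and the Robo1 stretch 0 at 56.0%. Over the 59 members that matched the RefSeq promoter table, 53 of their 75 promoters (70.7%) held a GC box on either strand, against 32.7% of all 32851 promoters of that length and 42.6% of the 21262 promoters of coding genes. The TATA box TATAAA was found in 2 (2.67%) against 12.4% of all, the CCAAT box in 20 (26.7%) against 33.8%, the half-site TGACG in 7 (9.33%) against 17.8%, and the full site TGACGTCA, which contains that half-site, in 1 (1.33%) against 1.55%. These are matches of letters, not sites of binding.

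Several members differed between neuron types by more than any differed between the ages in all neurons. Neurons were clustered again with all members taken out of the clustering genes, and 30 types with 20 or more nuclei in each library were compared; a type is called by 2 of its leading genes unless its markers gave a name. Among the 58 measured members, 5 had a highest type at 2-fold or more over the second highest, 14 at 1.5-fold or more, and 16 stood 5-fold or more above the median type. The highest type was the same in both libraries for 33 of the 58.

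**Figure D3:**
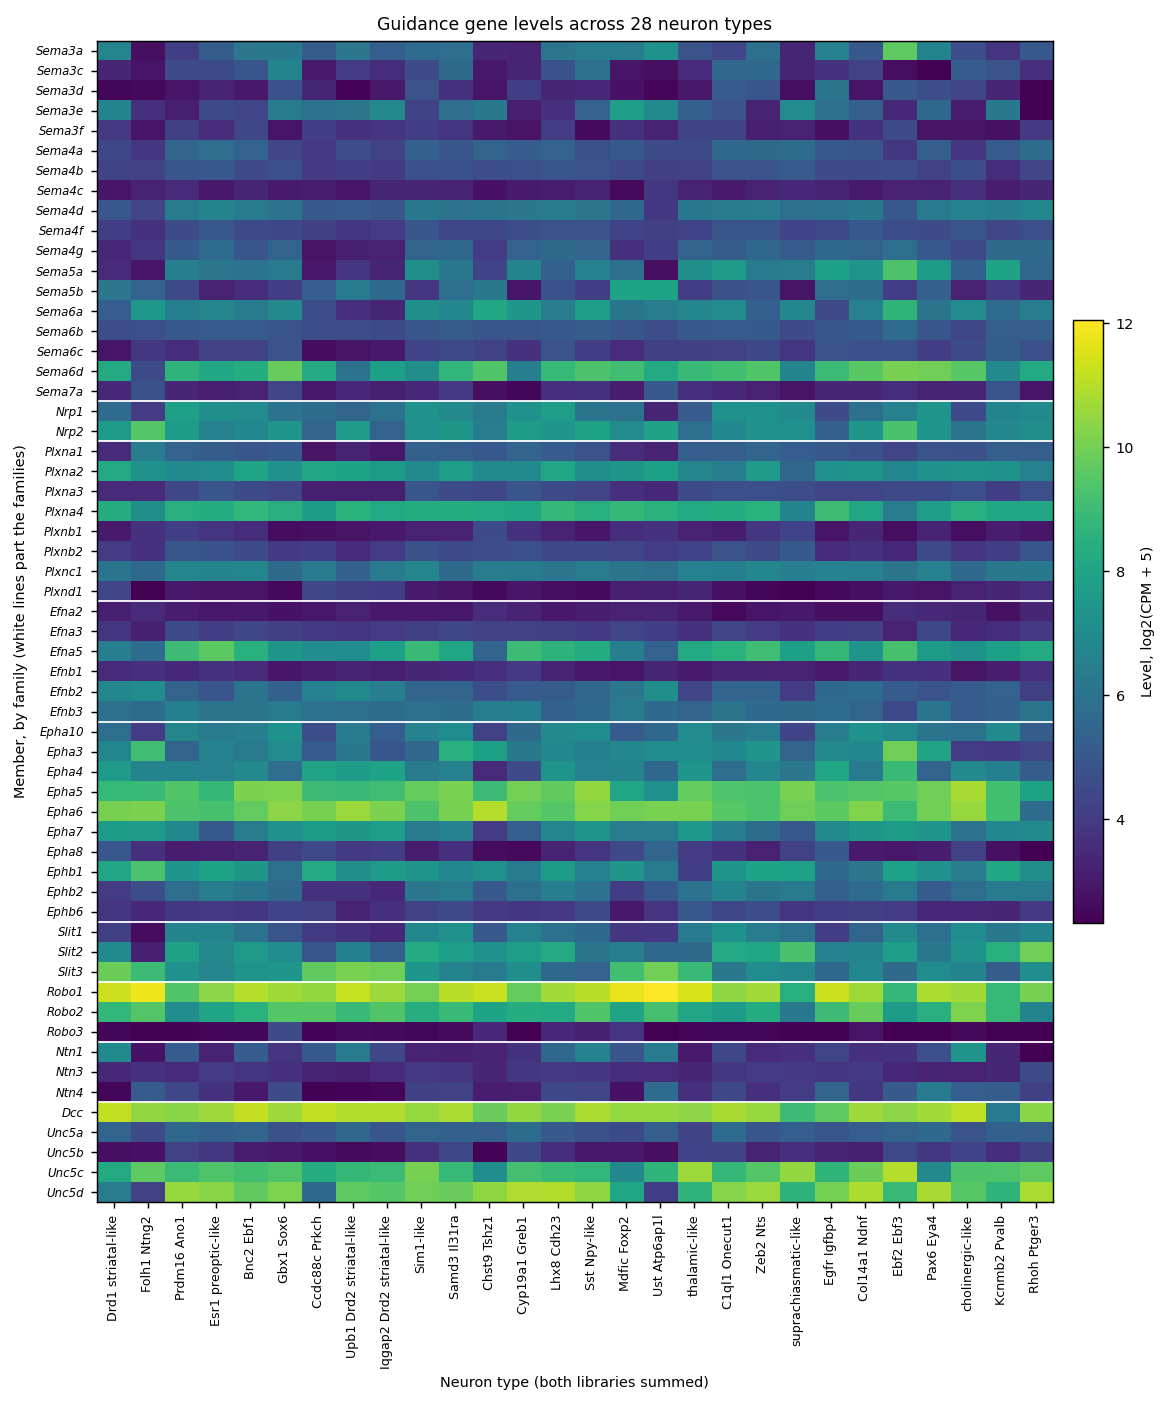
Level of the 58 measured members in 28 of the 30 neuron types, as log2(CPM + 5) with both libraries summed; rows are grouped by family with white lines between families, and colour runs from dark (low) to yellow (high). Robo1, Dcc, Epha5 and Epha6 are high in most types, while Sema3a stands out in the Ebf2 Ebf3 type and Unc5d is low in the Folh1 Ntng2 and Ust Atp6ap1l types.

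Ligands gave several of the sharpest differences. Sema3a was at 1041 (927 to 1167) CPM in the aged and 615 (542 to 694) CPM in the young nuclei of the Ebf2 Ebf3 type, 53 and 83 nuclei, and 5.11-fold above the next type, Ust Atp6ap1l, over both libraries. Sema5a was also highest in the Ebf2 Ebf3 type, at 633 and 641 CPM, 2.70-fold above the next. Secreted Sema3d was at 62.3 and 60.7 CPM in the Egfr Igfbp4 type, 2.08-fold above the next. Each of these 3 was highest in the same type in both libraries, with the young and aged intervals overlapping for Sema5a and Sema3d only. Sema3c peaked in the Gbx1 Sox6 type (106 and 94.2 CPM, 1.79-fold) and Sema3e in the Mdfic Foxp2 type (232 and 197 CPM, 1.74-fold). Slit2 was at 1008 and 945 CPM in the Rhoh Ptger3 type, 1.62-fold above the suprachiasmatic-like type and with its lowest level, 4.03 CPM, in the Folh1 Ntng2 type. Ntn3 also peaked in Rhoh Ptger3, but on 3 aged and 4 young UMIs, and Ntn4, another netrin, in Pax6 Eya4 (57.8 and 84.7 CPM).

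Among receptors, Ephb1 was at 577 and 664 CPM in the Folh1 Ntng2 type, 2.05-fold above the next, and Plxna1 was highest in the same type (89.3 and 73.1 CPM, 1.95-fold). Robo3, a Robo of commissural axons, was low throughout and peaked at 17.8 and 19.1 CPM in Gbx1 Sox6, 2.05-fold above the next. Epha3 (1157 and 852 CPM, 1.84-fold), Epha4 (475 and 460.4 CPM, 1.70-fold) and Sema6a (451 and 387 CPM, 1.51-fold) were again highest in Ebf2 Ebf3, and Epha8 in Ust Atp6ap1l (40.2 and 41.2 CPM, 1.48-fold). Over both libraries summed, 12 of the 58 members were highest in Ebf2 Ebf3 and 5 in Ust Atp6ap1l. In each library taken alone, 7 of those 12 and 4 of those 5 were highest in the same type. The other 5 in Ebf2 Ebf3 include Efna2, on 1 aged and 4 young UMIs, and Unc5b, on 3 and 9. The Ebf2 Ebf3 type is small, with medians of 5081 aged and 4219 young UMIs per nucleus.

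The receptors with many neuronal UMIs were broad but uneven. Robo1 ran from 343 CPM in suprachiasmatic-like to 4259 CPM in Ust Atp6ap1l neurons over both libraries, and Dcc from 75.9 CPM in Kcnmb2 Pvalb to 2294 CPM in Drd1 striatal-like neurons. Dcc was close to that highest level in Ccdc88c Prkch (2294 CPM) and Bnc2 Ebf1 neurons (2272 CPM). Unc5d ran from 12.3 CPM in Ust Atp6ap1l to 1931 CPM in Lhx8 Cdh23 neurons, and Unc5c from 110.5 CPM in Mdfic Foxp2 to 1994 CPM in Ebf2 Ebf3. Ust Atp6ap1l neurons were thus at the top for Robo1 and at the bottom for Unc5d. Across the 30 types, the member whose log2 level was most like that of Robo1 was Sema5b (Pearson r 0.67), then Plxna2 (0.56) and Efnb2 (0.53), and the least like was Slit2 (−0.62). For Dcc these were Robo1 (0.50), Slit3 (0.44) and Ntn1 (0.35), and for Epha6 Robo2 (0.56), Sema3e (0.45) and Epha8 (0.43). The types share 2 libraries, so these values are descriptions.

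Within types, members lay past the fold in both directions. Of 594 pairs of a member and a type with 200 or more UMIs, 63 were higher in the aged library (10.6%), against 10.0% of all 90268 pairs of a gene and a type, and 88 were lower (14.8%), against 9.54%. The 4 members that were lower in all neurons were lower in most types where they were measured. Ephb2 was past the fold downward in 10 of 10 types, from 0.481 in thalamic-like to 0.798 in Gbx1 Sox6 neurons. Slit1 was below 1 in 9 of 9 types and past the fold in 6, from 0.712 to 0.891. Epha10 was below 1 in 11 of 13 and past the fold in 7, with its lowest ratio in Upb1 Drd2 striatal-like neurons (44.7 and 101 CPM, 0.443, 0.355 to 0.550). Epha10 was also at 0.593 in Drd1 striatal-like and 0.594 in Prdm16 Ano1 neurons. Sema5b was past the fold in 5 of 6 types, from 0.546 in Ust Atp6ap1l (166 and 304 CPM) and 0.617 in Drd1 striatal-like neurons, and at 1.05 in the other, Samd3 Il31ra. Sema4d, not past the fold in all neurons (53.8 and 60.4 CPM, 0.890), was below 1 in 10 of 10 types and past the fold in 4.

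**Figure D4:**
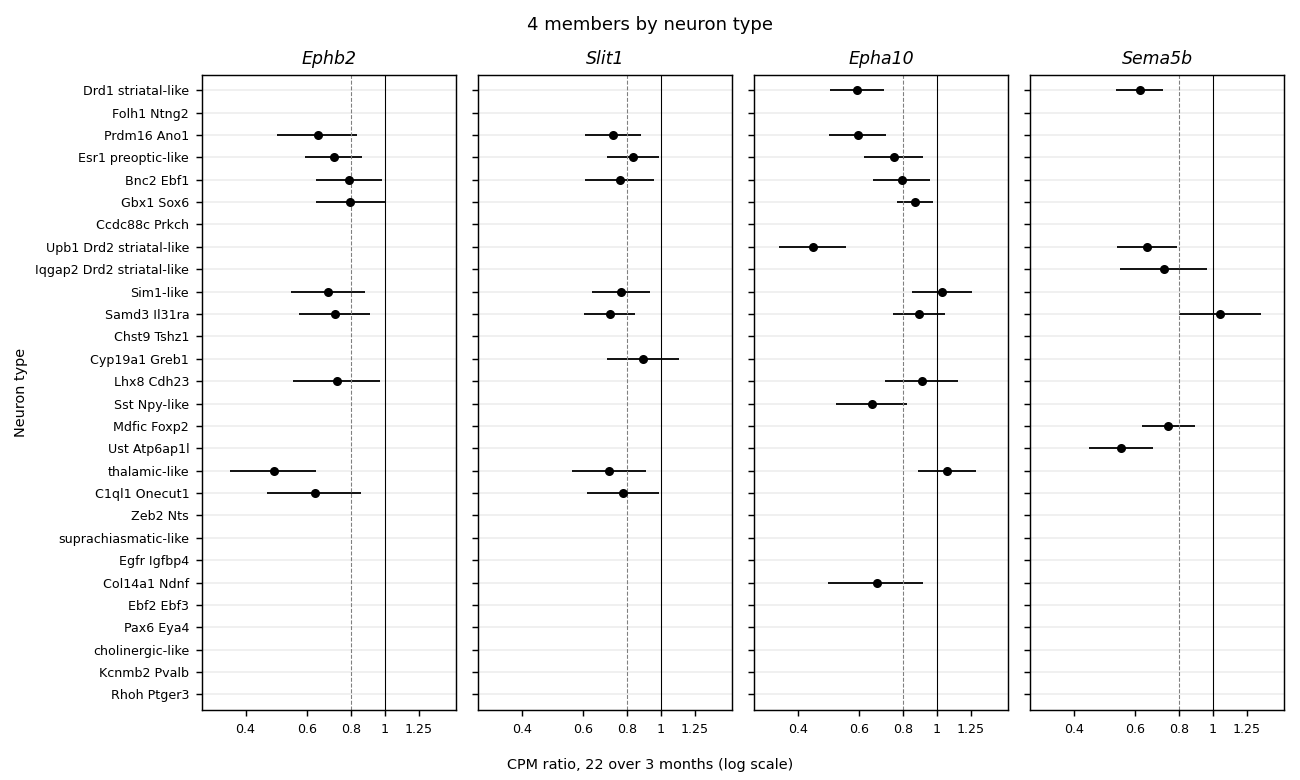
Ratio of the 22-month to the 3-month CPM of Ephb2, Slit1, Epha10 and Sema5b in those of 28 neuron types where the member had 200 or more UMIs, on a log axis; bars are 95% intervals for counting error, the dashed line marks 0.8 and empty rows had fewer UMIs. Ephb2 lies under 0.8 in all 9 types shown for it and Slit1 under 1 in all 8, while Epha10 lies above 1 in the Sim1-like and thalamic-like types.

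Thalamic-like neurons, 130 aged and 117 young nuclei, had the largest share of measured members past the fold among the 30 types: of 22 7 were higher, against 12.4% of all genes measured in that type, and 9 were lower, against 15.4%. Robo1 was at 3372 CPM in the aged and 2162 CPM in the young nuclei (1.56, 1.497 to 1.63), Epha7 at 226 and 116 CPM (1.95, 1.64 to 2.33) and Sema6d at 580.5 and 348 CPM (1.67, 1.51 to 1.85). Robo2 (305 and 214 CPM, 1.42) and Plxna2 (122 and 77.9 CPM, 1.56) were higher as well, so both broad Slit receptors stood higher. On the lower side were Ephb2 (39.9 and 83.0 CPM, 0.481), Plxna4 (232 and 373 CPM, 0.621), Epha5 (722 and 1072 CPM, 0.673) and Unc5c (1410.3 and 1835 CPM, 0.769). Their median depth was 13840.5 aged and 11203 young UMIs, and the part of depth in these differences was not tested.

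The 3 types named striatal-like shared lower Sema6d in the aged library, to different extents. In Upb1 Drd2 striatal-like neurons Sema6d had 53 UMIs in 30 of 271 aged nuclei and 264 UMIs in 119 of 307 young nuclei, that is 20.1 and 90.4 CPM, a ratio of 0.222 (0.162 to 0.299). In the second Drd2 type, Iqgap2 Drd2, it was at 189 and 244 CPM (0.774), and in Drd1 striatal-like neurons at 255 and 353 CPM (0.723). All 3 types with that name were past the fold downward, and the interval of the first did not reach those of the other 2. The Drd1 striatal marker list was also the best match for Ccdc88c Prkch and Ust Atp6ap1l neurons, which do not carry the name. Upb1 Drd2 striatal-like neurons also had higher Efna5 (155 and 102 CPM, 1.51) and Sema3a (83.4 and 52.4 CPM, 1.59) in the aged library. Unc5c was higher in the aged Drd1 striatal-like (339 and 253 CPM, 1.34) and Ccdc88c Prkch neurons (388 and 258 CPM, 1.501), and Ccdc88c Prkch neurons had lower Sema3e (33.2 and 75.8 CPM, 0.438) and Sema6d (245 and 354 CPM, 0.693).

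Further named pairs involved the smaller types. In Ebf2 Ebf3 neurons 6 of 14 measured members were higher, against 17.0% of all genes there, and 2 were lower, against 12.1%; Sema3a was past the fold at 1.69 (1.43 to 2.01). Robo2 was at 894 and 546 CPM in Folh1 Ntng2 neurons (1.64, 1.49 to 1.80) but at 643 and 1054 CPM in Col14a1 Ndnf (0.610, 0.535 to 0.694) and at 378 and 586 CPM in Egfr Igfbp4 neurons (0.644, 0.540 to 0.766). Robo2 thus differed in opposite directions between types. Dcc was at 2806 and 1831 CPM in 31 aged and 51 young cholinergic-like neurons (1.53, 1.43 to 1.65), with 250 of its 1595 aged UMIs in 1 nucleus, at 1881 and 1398 CPM in Col14a1 Ndnf (1.35) and at 385 and 598 CPM in suprachiasmatic-like neurons (0.644, 0.547 to 0.757). Sema5a was at 231 and 113 CPM in Col14a1 Ndnf (2.03, 1.53 to 2.71), Efna5 at 563 and 380.1 CPM in Egfr Igfbp4 (1.48), and Epha3 at 49.1 and 115 CPM in Sst Npy-like neurons (0.428, 0.311 to 0.580).

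Oligodendrocytes, the myelinating cells, fell into 2 clusters, one led by Opalin (1307 aged and 1483 young nuclei) and one with Apod among its leading genes (574 and 650 nuclei). The second had the committed-precursor marker Enpp6 and none of the oligodendrocyte list among its 10 leading genes, so the clusters are given apart. Robo1 was higher in the aged nuclei of both. In the Opalin cluster it was at 793 CPM aged and 407 CPM young (1.95, 1.81 to 2.09), and in the Apod cluster at 1299 and 917 CPM (1.42, 1.32 to 1.52). Dcc was lower in both, at 292 and 371 CPM (0.787, 0.715 to 0.866) in the first and 319 and 514 CPM (0.621, 0.555 to 0.695) in the second. Plxnb3 was lower in both as well, at 133 and 184 CPM (0.723, 0.628 to 0.831) and at 124 and 189 CPM (0.659, 0.548 to 0.793). A Slit receptor thus stood higher while a netrin receptor and a plexin stood lower in each cluster. Epha4 was at 63.9 and 46.7 CPM in the Opalin cluster (1.37, 1.08 to 1.74).

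Of 13 members measured in the Opalin cluster, 2 were higher, against 17.5% of all genes, and 2 lower, against 5.85%. Of 10 in the Apod cluster, 1 was higher, against 14.8%, and 2 lower, against 6.38%. Summed over both clusters, 15 members were measured, 3 were higher (20.0%), against 16.4% of all genes, and 2 lower (13.3%), against 5.32%. The members higher in the sum were Robo1, Epha4 and Unc5d. Unc5d had 266 UMIs (65.1 CPM) in the aged and 81 UMIs (18.5 CPM) in the young oligodendrocytes, a ratio of 3.52 (2.74 to 4.58). Unc5d was under 200 UMIs in each cluster, at 41.4 and 16.5 CPM in the Opalin cluster and 104 and 21.9 CPM in the Apod cluster, and 22 of its aged UMIs lay in 1 nucleus. In the sum Unc5c was at 0.988 (0.953 to 1.02), inside the fold, and Efnb3 (319 and 294 CPM, 1.09), Unc5b (111 and 117 CPM, 0.946) and Sema4d (133 and 121 CPM, 1.10) were inside it too, as were Sema6a (341 and 293 CPM, 1.16) and Sema6d (309 and 259 CPM, 1.19). Ephb1 was at 1.04 in the Opalin and 0.823 in the Apod cluster.

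**Figure D5:**
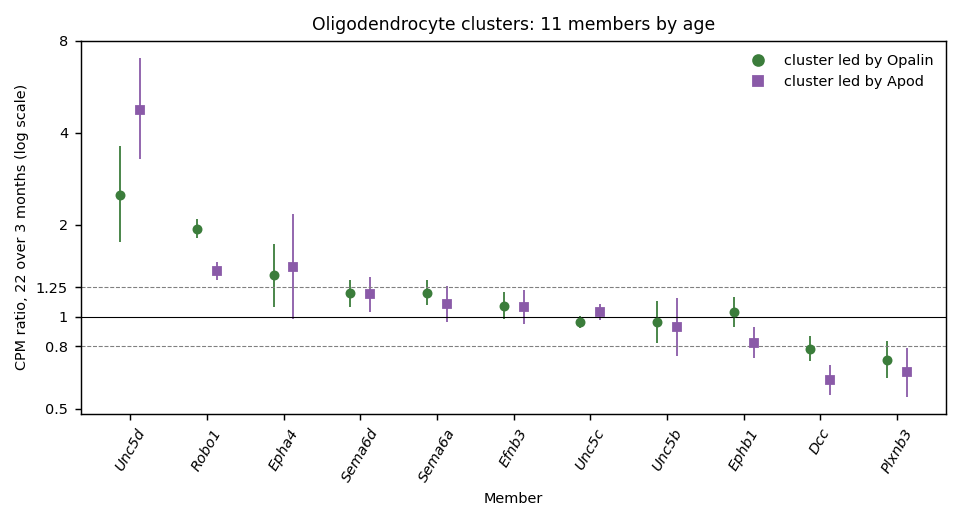
Ratio of the 22-month to the 3-month CPM of 11 members in the oligodendrocyte cluster led by Opalin (green circles) and the cluster with Apod (purple squares), on a log axis; bars are 95% intervals for counting error and the dashed lines mark 0.8 and its inverse. Robo1 and Unc5d lie above the upper line and Dcc and Plxnb3 under 0.8 in both clusters, and Unc5d had fewer than 200 UMIs in each.

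Neuronal RNA is a measured part of the oligodendrocyte profiles. The 8 neuron markers, all seen there, summed to 1086 CPM in the aged and 877 CPM in the young oligodendrocytes. Droplets without nuclei held Unc5d at 116 and 112 CPM, which is above its oligodendrocyte level, Robo1 at 212 and 164 CPM, Dcc at 174 and 160.0 CPM, and Plxnb3 at 9.01 and 7.73 CPM. The mean amount of such RNA per droplet was larger in the aged library, at 327.5 UMIs, than in the young one, at 242.6 UMIs. The part of this RNA in the Unc5d, Robo1 and Dcc differences was not tested. The share of oligodendrocytes with a Robo1 UMI was 62.9% aged and 43.6% young, or 47.8% and 32.3% after thinning, against 7.11% and 6.53% in microglia. For Unc5d the shares were 8.35% and 3.42%, against 2.94% and 3.37% in microglia. The young shares of the 2 classes lay close together, and the part of background RNA in any of these shares was not tested. For Plxnb3 they were 24.0% and 29.3%, against 0.245% and 1.47%. Median depths were 2023 and 1891 UMIs in oligodendrocytes and 2130.5 and 1804 in microglia. With the barcodes marked as doublets kept, all barcodes were clustered and named again. The oligodendrocyte class of that run is not the 2 clusters above, and it measured 8647 genes against 6442. In it the ratio was 1.38 for Unc5d, 1.27 for Robo1, 0.892 for Dcc and 0.704 for Plxnb3, so Dcc was then inside the fold. How much of these shifts is due to the marked doublets was not tested. Thinning moved none of the 4 across the fold (Unc5d 3.92, Robo1 1.70, Dcc 0.740 and Plxnb3 0.668). With droplet RNA subtracted Unc5d was at 9.49.

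In the precursors, the dividing cells that give rise to oligodendrocytes, 11 members were measured. Sema3e was higher, at 159 and 111 CPM (129 and 102 UMIs; 1.44, 1.10 to 1.88), as was the ligand Ntn1, at 225 and 179.9 CPM (1.252, 1.01 to 1.55); these 2 compare with 11.1% of all genes. Sema5b was lower, at 222 and 286 CPM (0.775, 0.637 to 0.940), the 1 member past the fold downward, against 9.14% of all genes. Sema5b thus stood lower in the aged library in both neurons and precursors. Dcc was at 0.889 (0.828 to 0.955), Sema6d at 855 and 957 CPM (0.894), Sema5a at 0.895, Robo1 at 1.06 and Epha5 at 1.05. Sema3d was at 0.999 (0.857 to 1.16). Ntn1 was inside the fold with doublets kept (1.20), with 1000 genes or more (1.249) and with a mitochondrial limit of 1% (1.22), and Sema5b was inside it with that limit (0.827).

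In astrocytes 4 members were measured, 0 were higher, against 11.4% of all genes, and 2 lower, against 9.90%. Sema6d was at 356 and 460.3 CPM (192 and 547 UMIs; 0.774, 0.653 to 0.914), and at 0.9245 after thinning. Slit2, also a neuronal ligand, was at 121 and 152 CPM (65 and 181 UMIs; 0.792, 0.587 to 1.06), an interval that includes 1, and at 0.951 after thinning. Nrp1 (1.08) and Robo1 (1.12) were inside the fold, and 154 aged nuclei limit what this class can show. In microglia 3 members were measured, with 0 higher, against 13.9% of all genes, and 0 lower, against 10.1%. Plxna4 was at 0.949 (0.828 to 1.09), Nrp1 at 1.14 (0.892 to 1.45) and Sema4d at 1.03 (0.817 to 1.29), and each interval includes 1, so no difference was detectable at this depth.

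Other genes of guidance signalling were read from 2 lists, 27 partners and co-receptors and 42 intracellular effectors. Percentages beside their counts are the shares of all measured genes past the fold in the same direction and the same nuclei. Of the 24 partners measured in neurons, 0 were higher (7.75% of all genes) and 3 lower (10.2%): Dscaml1, a cell adhesion molecule (163 and 227 CPM, 0.720, 0.699 to 0.741), Lrrc4, a synaptic binding partner of netrin-G proteins (99.9 and 133 CPM, 0.750, 0.723 to 0.778), and Itga1 (0.7998, 0.605 to 1.05), an integrin subunit. Dscam, the netrin-binding relative of Dscaml1, was at 665 and 659 CPM (1.01). Of 41 effectors measured in neurons, 1 was higher, the guanine nucleotide exchange factor Vav3 (90.4 and 63.4 CPM, 1.43, 1.36 to 1.49), and 0 lower. Of 25 effectors measured in the Opalin cluster of oligodendrocytes, 5 were higher (17.5% of all genes), among them Farp1, a partner of A-type plexins (90.7 and 43.1 CPM, 2.11, 1.68 to 2.65), and the actin regulator Enah (205 and 143 CPM, 1.44, 1.26 to 1.64), and 1 was lower (5.85%), Mical3, of a family of enzymes in semaphorin signalling (117 and 165 CPM, 0.708). Of 20 in the Apod cluster 2 were higher (14.8% of all genes), Enah (211 and 128 CPM, 1.65, 1.38 to 1.98) and the kinase Pak3 (104 and 74.3 CPM, 1.405), and 0 were lower (6.38%). Of the partners, 0 of 10 were past the fold in the Opalin cluster, and of 9 in the Apod cluster 0 were higher and 1 lower, Lrrc4 (65.7 and 93.7 CPM, 0.702). In precursors, where 11.1% of all genes were higher and 9.14% lower, 2 of 10 partners were higher, Neo1 (1.33), a netrin and Rgm receptor, and the adhesion molecule Chl1 (1.3997), and 2 lower, Dscaml1 (0.768) and Lrrc4 (0.755), while 1 of 16 effectors was higher, Cdc42 (1.65), and 2 were lower, Kalrn (0.736) and Mical3 (0.785). Lrrc4 was thus past the fold downward in neurons, the Apod cluster and precursors, and also in microglia (0.782), while it was at 0.807 in the Opalin cluster. The part of neuronal RNA in these glial Lrrc4 ratios was not tested. In astrocytes 0 of 4 partners were past the fold. There 3 of 16 effectors were lower, against 9.90% of all genes: Srgap3 (0.735), Kalrn (0.782) and Farp1 (0.789), and 0 were higher, against 11.4%. In microglia 0 of 15 effectors were past the fold, and of 5 partners Lrrc4 alone was, against 10.1% of all genes lower and 13.9% higher.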

How the data were processed

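Per the file headers, Cell Ranger 4 wrote the deposited UMI counts per gene and barcode, which are neither filtered nor normalised. The genome build, annotation and use of intronic reads or strand were not given in the sources used here. Totals were 79107368 UMIs aged and 87520038 young. All else was computed with Python 3.11.15, scanpy 1.11.5, scipy 1.17.1 and numpy 2.4.6. Nuclei were scaled to 10000 UMIs, log transformed and clustered on 2000 variable genes without the members, with 30 components, 15 neighbours, shared-neighbour weights and Leiden (leidenalg 0.10.2, resolution 1). UMIs were summed per class and library. Ratios of CPM carry exact conditional binomial intervals, levels exact Poisson and shares exact Clopper-Pearson intervals, none of which covers the spread between mice. Log2 ratios used a pseudocount of 5 CPM. Droplets without nuclei are the barcodes ranked 20001 to 60000 by UMIs. Named members are those whose interval bound nearest to 1 is farthest from 1, 8 in each direction in neurons, 4 in each other class and 15 pairs for types; the 15 members with the highest type farthest above the second; 5 per class by CPM per kb; and the 3 most like each of the 3 members with most UMIs. The members, lists and rules were chosen with earlier results of these data known. The ratio code was checked on simulated counts. The features named for Cre and tdTomato held 0 UMIs and were left out. Gene positions and lengths are those of GENCODE M21. Of the 30 neuron types, 2 are counted in the totals but are not reported here by name.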

Additional observations from a re-analysis of the deposited data

Results flagged for a closer look

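Ratios of aged over young CPM that lay on opposite sides of 1 in different neuron types are given here; the difference between types was not tested, since each age has 1 library. Dcc was at 1.53 in cholinergic-like and 0.644 in suprachiasmatic-like neurons. Robo2 was at 1.64 in Folh1 Ntng2, 0.644 in Egfr Igfbp4, 0.610 in Col14a1 Ndnf and 0.598 in Pax6 Eya4 neurons. Sema6d was at 1.67 in thalamic-like and 0.222 in Upb1 Drd2 striatal-like neurons.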

How the results depend on the processing

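Among the 39 named ratios of a member in a class, 289 alternative values were computed; 265 moved by less than the counting interval, 24 moved by more and 0 turned a called direction. The number past the fold moved more. Each count is given of the members measured, with the share or number of all genes in brackets. In neurons, 1 of 58 was higher with droplet RNA subtracted (7.55%), and lower were 0 of 58 at 1.5-fold (4.21%) and 8 of 58 thinned to 1000 UMIs (15.4%). In oligodendrocytes, higher were 11 of 35 with a minimum of 50 UMIs (22.6%) and 7 of 32 with doublets kept (12.8%), and lower were 0 of 15 at 1.5-fold (1.37%), 6 of 35 with 50 UMIs (8.30%) and 4 of 32 with doublets kept (5.41%). In microglia, higher were 2 of 8 with 50 UMIs (20.8%) and 2 of 5 with doublets kept (13.1%), and lower 2 of 8 with 50 UMIs (1027 of 6861 genes). In astrocytes, higher were 2 of 16 with 50 UMIs (20.7%) and 1 of 4 with doublets kept (11.8%), and lower were 0 of 4 at 1.5-fold (2.35%), 6 of 16 with 50 UMIs (16.1%), 1 of 4 with a mitochondrial limit of 1% (10.1%) and 0 of 4 thinned (18.6%). In precursors, higher were 0 of 11 at 1.5-fold (2.33%), 1 of 14 with doublets kept (11.5%), and 1 of 11 each with 1000 genes or more (11.1%) and a limit of 1% (9.90%). Lower there were 0 of 11 at 1.5-fold (27 of 1542 genes), 8 of 22 with 50 UMIs (15.2%) and 0 of 11 with a limit of 1% (8.85%). Of 594 pairs of a member and a type, 13 were higher (1.54%) and 24 lower (2.36%) at 1.5-fold, and 126 higher thinned (24.3%); of 1062 with 50 UMIs, 165 were higher (16.3%) and 199 lower (15.7%). At Leiden resolution 2, 3 members stood 2-fold above the second type, and 37 of 58 kept a leading type that matched; with members among the clustering genes 46 of 58 did. With doublets kept, all barcodes were clustered and named again, so the classes can differ by more than the doublets. Why the counts moved was not tested, except that a higher fold keeps fewer and a lower minimum of UMIs admits more members. Median-of-ratios scaling shifted all ratios by 0.02 in neurons and 0.08 in oligodendrocytes (log2). No paired analysis was possible because each age has 1 library, and for the same reason no library could be left out.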

Other observations

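Values of members in rarer cell classes are given here. Fibroblast-like nuclei formed 2 clusters. The one led by Slc6a13 held 17 aged nuclei, with 0 Slit2 UMIs. That allows up to 46.6 CPM, taken as 3 UMIs, or 57.2 CPM by the exact Poisson interval used for the other levels. The same cluster held 63 young nuclei, with 6 Slit2 UMIs (37.1 CPM, 13.6 to 80.7). The one led by Bnc2 held 0 aged and 33 young nuclei, and Slit2 had 455 UMIs there (1899.95 CPM, 1729 to 2083), so its level in those nuclei has no aged counterpart. In 22 young nuclei of committed precursors, Sema5a was at 1299 (1117 to 1502) CPM, Unc5c at 1320.3 CPM and Plxnb3 at 378 (283 to 495) CPM, against 333, 1109.5 and 88.8 CPM in young precursors; the aged library held 2 such nuclei. Sema5a in oligodendrocytes had 36 aged and 125 young UMIs (8.81 and 28.5 CPM), under the minimum. Robo4, an endothelial Robo with 0 aged and 1 young UMI in neurons, had 6 and 4 UMIs in 21 aged and 24 young endothelial nuclei, and the secreted semaphorin Sema3c was at 844 and 523 CPM there on 48 and 28 UMIs. Nrp1 was at 649.5 and 1068 CPM in border macrophages on 21 and 45 UMIs.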
